A study of Mus musculus with 11 samples.

Results

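The simple epithelial keratins Krt8, Krt18, Krt7 and Krt19 were described in wild-type (WT) mouse cells and in mouse cells whose Mettl3 gene was knocked out (KO). The 4 genes were found by matching gene identifiers to these symbols, and they are 4 of 39179 genes in the table and 4 of its 54 keratin genes. They were chosen by their measured levels in these same libraries, compared between WT and KO and between stages. Their levels and differences are therefore given as a description, with a standard error (SE) from a fit across all genes and with no test.

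Keratins are the intermediate filament proteins of epithelial cells. Each filament needs a type II keratin, such as Krt8 or Krt7, paired with a type I keratin, such as Krt18 or Krt19, and an unpaired keratin is degraded. Krt8 and Krt18 are the earliest keratins of the mouse embryo, where trophectoderm and extraembryonic endoderm make them, and Krt7 and Krt19 join them in many ducts and linings. Mettl3 is the enzyme at the core of the complex that places N6-methyladenosine on transcripts.

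RNA was sequenced from embryonic stem cells (ESCs) and from embryoid bodies (EBs), the differentiating clumps that ESCs form in suspension. WT ESCs and Mettl3-KO ESCs had 3 libraries each, named A, B and C, and WT EBs and Mettl3-KO EBs had 2 each, named A and B. All 4 groups have the strain label C57BL/6. ESCs were kept without serum in LIF with the GSK3 inhibitor CHIR99021 and the MEK inhibitor PD0325901. EBs were cultured on non-adherent plates with serum over 8 to 21 days, and the labels give neither the day of each library nor how many KO clones were used. The design text calls the libraries biological replicates and says that ESC replicate C was measured together with a SILAC protein assay. A library of embryonic fibroblasts is not analysed here. Levels are DESeq-normalized counts, which are gene read counts divided by a size factor for each library.

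Mettl3 stood at 368 to 425 normalized counts in the WT libraries and at 131 to 154 in the KO libraries. Reads in genes numbered 3026837 and 3075007 in the ESC replicate C libraries and 8523027 to 15426894 in the other 8. Replicate C differed from its group's other ESC libraries, with r of 0.653 to 0.692 across genes against 0.990 between A and B. The keratin differences that use ESCs are therefore also given without the replicate C libraries. The summed level of 9 pluripotency markers reached 117764 in replicate C of WT ESCs, while the remaining ESC libraries had 38845 to 52945. It was 20004 to 21542 in WT EBs and 29037 to 32976 in KO EBs, so that it was higher in KO EBs, where the keratins were lower.

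Krt8 (ENSMUSG00000049382) lies on chromosome 15 from 101996698 to 102004482 on the minus strand, and Krt18 (ENSMUSG00000023043) lies on the same chromosome from 102028180 to 102032027 on the plus strand, in GRCm38. The bases between them number 23697, and the genes are transcribed away from each other. Krt7 (ENSMUSG00000023039) lies on chromosome 15 from 101411043 to 101430313 on the plus strand, within the type II keratin cluster. Krt19 (ENSMUSG00000020911) lies on chromosome 11 from 100140810 to 100148665 on the minus strand, within the type I cluster. All 4 are protein coding, and all 4 passed the filter of a mean of 10 normalized counts over the 10 libraries.

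The promoters of Krt8, Krt18 and Krt7 are shown because the levels of these genes were all higher in WT EBs than in WT ESCs, and these were the 3 genes with an entry in the promoter table. Each is the RefSeq sequence of GRCm38.p6 from 250 bases before to 50 bases after the annotated start, 5′ to 3′ on the gene's own strand. The RefSeq start lies inside the GENCODE gene given above, 140 bases from its 5′ end in Krt8, 36 bases in Krt18 and 1360 bases in Krt7. Capitals mark matches to the motifs named after the sequences. Krt8 is chr15:102004293-102004592 on the minus strand, Krt18 is chr15:102027966-102028265 on the plus strand and Krt7 is chr15:101412153-101412452 on the plus strand.
Krt8: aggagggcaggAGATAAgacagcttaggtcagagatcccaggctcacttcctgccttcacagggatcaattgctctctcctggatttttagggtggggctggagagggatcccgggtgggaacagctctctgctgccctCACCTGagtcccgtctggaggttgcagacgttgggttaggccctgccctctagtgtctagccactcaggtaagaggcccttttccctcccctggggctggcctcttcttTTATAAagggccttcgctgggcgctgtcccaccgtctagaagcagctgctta
Krt18: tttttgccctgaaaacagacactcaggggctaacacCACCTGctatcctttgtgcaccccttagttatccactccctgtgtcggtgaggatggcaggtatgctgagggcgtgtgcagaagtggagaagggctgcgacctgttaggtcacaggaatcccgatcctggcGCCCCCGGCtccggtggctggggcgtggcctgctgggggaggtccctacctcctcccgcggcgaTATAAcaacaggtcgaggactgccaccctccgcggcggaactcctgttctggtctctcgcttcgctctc
Krt7: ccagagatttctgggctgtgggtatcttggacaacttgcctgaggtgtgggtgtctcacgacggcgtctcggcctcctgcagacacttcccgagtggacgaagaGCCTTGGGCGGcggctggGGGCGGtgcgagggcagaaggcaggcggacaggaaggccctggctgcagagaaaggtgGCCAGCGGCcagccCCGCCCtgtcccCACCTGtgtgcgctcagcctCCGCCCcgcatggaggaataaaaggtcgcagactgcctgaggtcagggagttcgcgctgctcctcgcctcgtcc

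The motifs were searched on both strands, and a match describes letters, not binding. CAGGTG, the E-box that Snail repressors recognise, had 1 match in each of the 3 promoters, and 20.2% of 32851 promoters of this length hold it. TATAA had 2 matches in Krt8, which overlap on opposite strands and begin 1 and 2 bases before the annotated start. It had 1 match in Krt18, 19 bases before the start, and no match in Krt7, against 24.9% of all promoters. GGGCGG, the GC box that Sp1 binds, had 4 matches in Krt7 and none in Krt8 or Krt18 (35.7% of all promoters). GCCNNNGGC, an AP-2 site, had 1 match in Krt18 and 2 in Krt7 (16.6%), of which the first in Krt7 overlaps a GC box. AGATAA, which factors of the GATA family recognise, had 1 match in Krt8 and none in Krt18 or Krt7 (11.2%). GC content was 58.0% in Krt8, 61.3% in Krt18 and 66.3% in Krt7, beside a median of 52.7% over all promoters. TGANTCA, an AP-1 site, was searched too and had no match in any of the 3 promoters (7.81% of all promoters). Of these motifs, CAGGTG alone matched in all 3 windows.

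Krt8, the type II partner of the pair, was lowest in WT ESCs and highest in WT EBs. In replicates A, B and C its normalized counts were 66.5, 76.3 and 98.8 in WT ESCs, against 313, 335 and 719 in KO ESCs. WT EBs held 3989 and 4132 in replicates A and B, and KO EBs held 203 and 196. No groups overlapped, and the order was WT ESCs, KO EBs, KO ESCs and WT EBs. The gene was thus higher in KO than in WT before differentiation and lower in KO than in WT after it.

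The log2 difference of KO minus WT for Krt8 was 2.40 (SE 0.33) in ESCs and -4.34 (SE 0.40) in EBs. EBs minus ESCs came to 5.66 (SE 0.36) in WT and to -1.08 (SE 0.36) in KO. Without both replicate C libraries, KO minus WT in ESCs was 2.17, and EBs minus ESCs was 5.81 in WT and -0.70 in KO. In ratios of mean levels, KO ESCs held 5.66 times the Krt8 level of WT ESCs, and WT EBs held 20.4 times that of KO EBs. In bulk samples, fewer cells that express a keratin and less RNA per cell cannot be told apart.

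Krt18, the type I partner of Krt8, was likewise lowest in WT ESCs and highest in WT EBs, and its differences between genotypes were smaller than those of Krt8. It had 87.3, 79.4 and 105 normalized counts in WT ESCs and 183, 203 and 447 in KO ESCs. WT EBs had 3268 and 3575, and KO EBs had 292 and 312. KO EBs lay between the lowest and the highest KO ESC library, so these groups overlapped, and all other pairs of groups were apart.

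For Krt18 the log2 difference of KO minus WT was 1.49 (SE 0.33) in ESCs and -3.50 (SE 0.40) in EBs. The difference of EBs minus ESCs was 5.23 (SE 0.37) in WT and 0.24 (SE 0.37) in KO. Leaving out the replicate C libraries gave 1.20 for KO minus WT in ESCs, and 5.34 in WT and 0.64 in KO for EBs minus ESCs. WT EBs held 37.7 times the mean level of WT ESCs, whereas the KO ratio was 1.09.

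Krt7, a type II keratin of ducts and glands, had the lowest level per length of the 4 in WT EBs. Its normalized counts were 29.3, 26.0 and 3.29 in WT ESCs and 35.9, 32.7 and 41.7 in KO ESCs. WT EBs had 188 and 182, and KO EBs had 36.7 and 38.2. The value of 3.29 in WT ESC replicate C rests on 1 read, and the ESC libraries held at most 66 reads of this gene. KO ESCs and KO EBs overlapped, while WT ESCs lay below them and WT EBs above.

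The log2 difference of KO minus WT for Krt7 was 1.31 (SE 0.71) in ESCs, and it was 0.30 without both replicate C libraries. In EBs it was -2.27 (SE 0.87), where WT held 4.93 times the mean level of KO. EBs minus ESCs came to 3.61 (SE 0.79) in WT and 0.03 (SE 0.79) in KO, and without the replicate C libraries these were 2.70 and 0.12. The Krt7 difference between KO and WT ESCs thus rests largely on replicate C, where KO had 15 reads and WT 1 read, a ratio of 12.6 with an exact binomial 95% interval of 1.95 to 532.

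Krt19, a type I keratin that lacks the usual tail domain, had the largest difference between the EB groups and the largest SE of the 4. Its normalized counts were 9.30, 15.3 and 115 in WT ESCs, against 12.5, 12.7 and 281 in KO ESCs, with the highest value in replicate C of each genotype. WT EBs held 956 and 869, and KO EBs held 16.2 and 18.7. WT EBs stood above every other library, and the other 3 groups overlapped one another.

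For Krt19 the log2 difference of KO minus WT was -5.63 (SE 1.62) in EBs, a ratio of mean levels of 52.3 in favour of WT. It was 0.47 (SE 1.33) in ESCs, smaller than its SE, and 0.07 without both replicate C libraries. EBs minus ESCs was 5.08 (SE 1.48) in WT and -1.02 (SE 1.48) in KO. Against ESC replicates A and B alone, these were 6.14 in WT and 0.44 in KO, and against replicate C alone they were 2.97 and -3.93. The sign of the KO value thus differs with the ESC libraries it is set against.

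**Figure D1:**
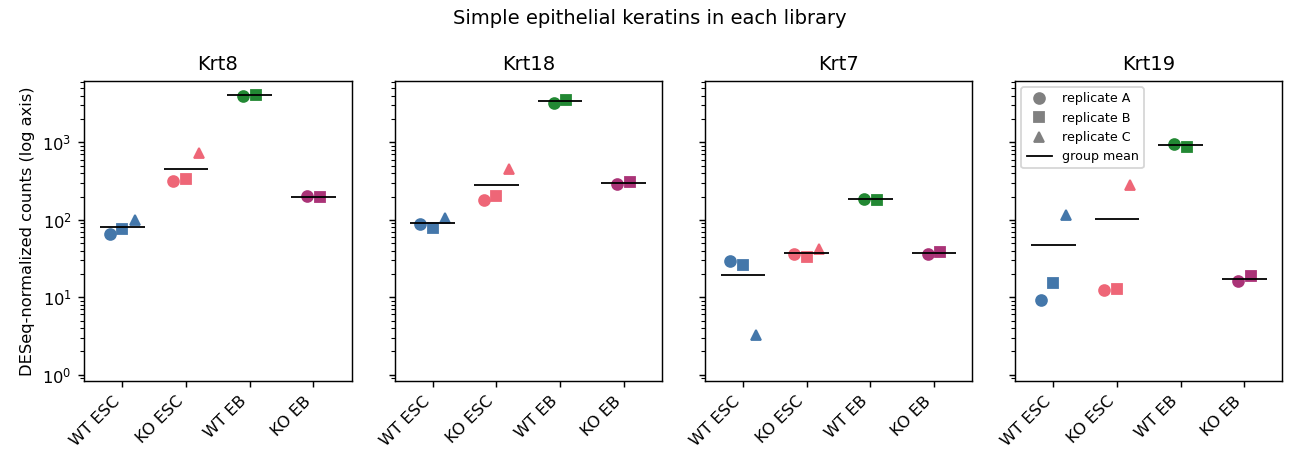
Normalized counts (log axis) of Krt8, Krt18, Krt7 and Krt19 in each library by group, with symbols for replicate letters and a line at each group mean. WT EBs stand above all other groups for every gene, and the Krt19 values of ESC replicate C stand above those of A and B.

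Within each letter, Krt8 and Krt18 were higher in KO than in WT ESCs in all 3 replicates. The log2 difference of Krt8 was 2.22, 2.12 and 2.85 in A, B and C, and that of Krt18 was 1.06, 1.35 and 2.07. Krt7 gave 0.28, 0.32 and 3.31, and Krt19 gave 0.39, -0.25 and 1.28. For each keratin, replicate C had the largest difference of the 3. In EBs all 4 genes were lower in KO in both letters, by log2 differences of -4.29 and -4.39 for Krt8, -3.48 and -3.52 for Krt18, -2.32 and -2.22 for Krt7 and -5.79 and -5.47 for Krt19.

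The KO effect in EBs minus the KO effect in ESCs was -6.74 (SE 0.51) for Krt8 and -4.99 (SE 0.52) for Krt18. It was -3.58 (SE 1.12) for Krt7 and -6.10 (SE 2.10) for Krt19. Without both replicate C libraries these differences were -6.51, -4.70, -2.57 and -5.70. For Krt19 the difference was -4.65 without KO ESC replicate C alone and -7.16 without WT ESC replicate C alone. For Krt7 it was -2.67 without WT ESC replicate C alone. For Krt8, Krt18 and Krt7 every KO ESC library lay above every WT ESC library, and every KO EB library lay below every WT EB library. How many of all tested genes had both is not given.

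**Figure D2:**
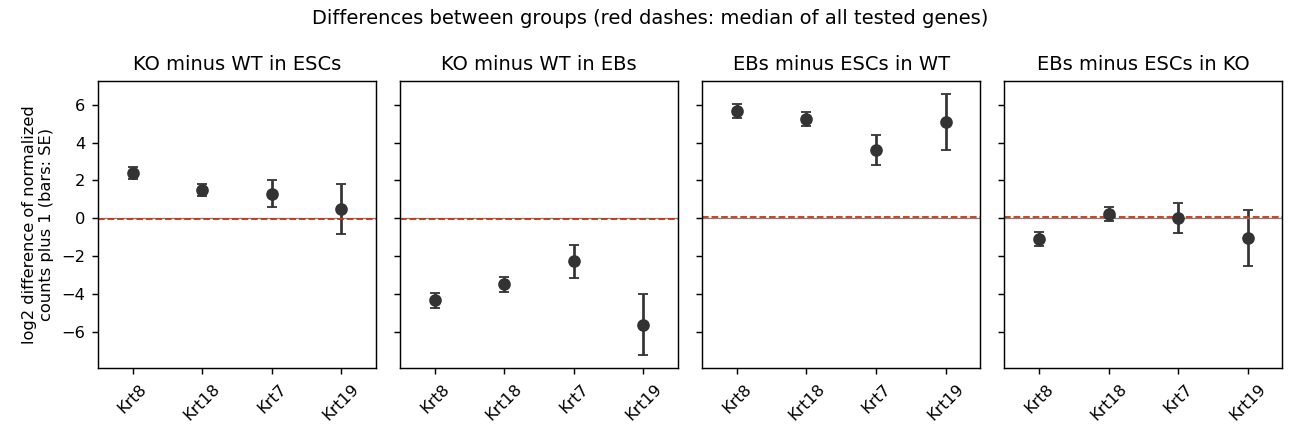
Log2 difference of normalized counts plus 1 for the 4 keratins in each comparison, with bars of 1 SE and a dashed line at the median of all tested genes. KO minus WT is above 0 in ESCs and below 0 in EBs for Krt8, Krt18 and Krt7.

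Counts of separated groups are set beside the same count over 15781 tested genes. KO ESCs lay wholly above WT ESCs for 3 of the 4 keratins and for 9.23% of tested genes. KO EBs lay wholly below WT EBs for 4 of 4 keratins and for 38.9% of tested genes. WT EBs lay wholly above WT ESCs for 4 of 4 and for 23.2% of genes. KO EBs lay wholly below KO ESCs only for Krt8 among the 4, and for 20.5% of genes. The members were chosen with these values known, so nothing is read from the counts.

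Levels of different keratins can be compared only per length, so each was divided by its longest coding transcript, of 1958 bases for Krt8, 1437 for Krt18, 4094 for Krt7 and 1576 for Krt19. Per kilobase, Krt8 and Krt18 made up 85.5% to 95.1% of the 4 keratins' level in the 8 libraries other than ESC replicate C. They made up 62.6% in WT and 78.3% in KO ESC replicate C. Krt19 held 37.0% in WT and 20.5% in KO ESC replicate C, and 2.45% to 8.79% in ESC replicates A and B. Its share was 12.2% and 10.6% in WT EBs and 3.16% and 3.50% in KO EBs. The share of Krt7 ran from 0.407% to 6.65% over the 10 libraries.

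The ratio of Krt8 to Krt18 per kilobase differed between the groups. It was 0.56, 0.71 and 0.69 in WT ESCs and 1.26, 1.21 and 1.18 in KO ESCs. It was 0.90 and 0.85 in WT EBs and 0.51 and 0.46 in KO EBs. As computed, Krt8 exceeded Krt18 per length only in the KO ESC libraries, and no groups overlapped. Of 50-base windows, 29.7% of those of Krt8 and 0.72% of those of Krt18 also occur in other genes. The levels were not corrected for this, so the order of Krt8 and Krt18 within a group holds only for levels as computed.

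Over all 4 genes, the ratio of type II to type I keratin per kilobase was 0.62, 0.70 and 0.35 in WT ESCs and 1.25, 1.20 and 0.77 in KO ESCs. It was 0.72 and 0.71 in WT EBs and 0.53 and 0.48 in KO EBs. The low value of replicate C in each ESC group goes with its high Krt19 level. Scaled to all reads in genes, the 4 keratins together had 21.6, 23.2 and 32.4 RPM (reads per 1000000 reads in genes) in WT ESCs and 64.8, 72.9 and 174 in KO ESCs. They had 1029 and 1115 RPM in WT EBs and 72.8 and 78.0 in KO EBs.

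**Figure D3:**
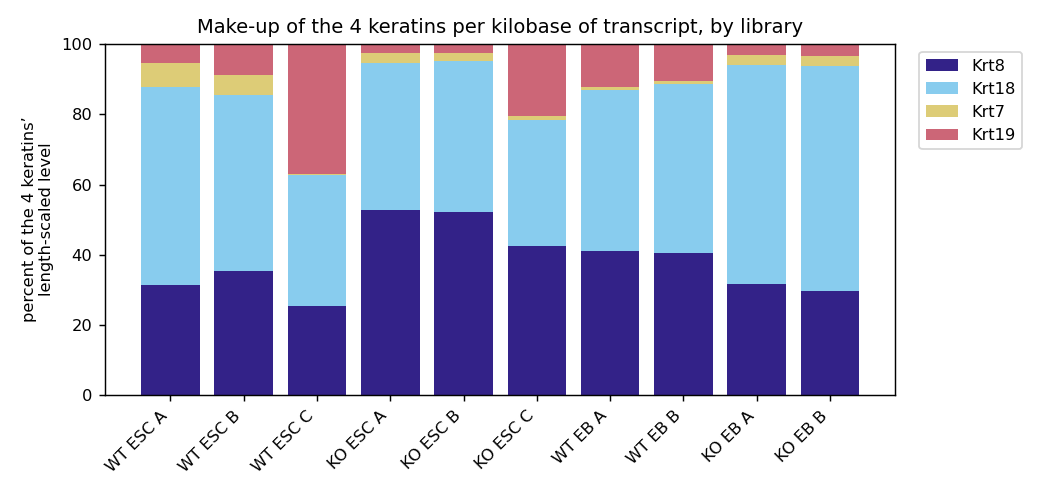
Percent of the summed per-kilobase level of the 4 keratins held by each gene, in each library. Krt8 and Krt18 hold most of every bar, and Krt19 is largest in WT ESC replicate C at 37.0%.

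Sequence shared with other genes limits the Krt8 value in particular. Of the 50-base windows of the Krt8 transcript, 29.7% also occur in the pseudogene Krt8-ps or in Gm36026, and 17.1% of 100-base windows do. The share was 0.72% for Krt18, 0.222% for Krt7 and 0% for Krt19 at 50 bases. Gm36026 overlaps 5.16% of the Krt8 exon bases on the other strand and Gm671 overlaps 1.09% of those of Krt7. The kit named in the labels does not mark strand, so reads of overlapping genes cannot be told apart.

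GGACT, the sequence in which N6-methyladenosine is most often found, was counted in the longest coding transcripts. Krt18 held 2.78 per kilobase, Krt8 2.04, Krt19 1.90 and Krt7 0.73, beside a median of 1.01 over 21901 genes. Krt18 had more than 96.4% of genes, Krt8 more than 88.8%, Krt19 more than 86.2% and Krt7 more than 34.1%. Methylation itself was not measured in these libraries.

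Most other keratin genes were at low levels in these cells. Of 50 others in the table, each had a read in some library, 45 had a mean under 10 normalized counts and 5 were tested. Krt23, a type I keratin, was lower in KO than in WT EBs (adjusted p = 0.0243, limma), with 1 read in KO and 131 reads in WT. Krt23 passed the filter on low values only through WT EBs, the group where it was high, so this call and the next are not independent of that filter. edgeR did not call the difference between KO and WT EBs, and limma did not with a pseudocount of 0.5 (adjusted p = 0.0622, limma). Both calls were lost without any single WT library of replicate A or B. The call in KO against WT EBs was also lost without any single KO library of replicate A or B. The ratio of WT to KO was 138, with an exact binomial 95% interval of 24.3 to 5481. Krt23 was also higher in WT EBs than in WT ESCs (adjusted p = 0.00988, limma), where no read was found, by at least 53.3-fold against a floor of 3 reads over the group. Krt42, the most abundant of those not called in KO against WT EBs, had a log2 difference of -0.16 there (SE 2.03). Krt14, a keratin of basal epidermis that did not pass the filter and was chosen after its values were seen, had normalized counts of at most 2.15 in ESCs, 32.2 and 34.4 in EBs of WT and 3.53 and 1.70 in those of KO.

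Among keratins chosen after their values were seen, Krt42 had 4.35 and 2.72 normalized counts in KO ESC replicates A and B and 497 in C. WT ESCs had 227, 195 and 333, and EBs 304 to 369. Krt17, a type I keratin of hair follicles and wounded skin, had 1.63, 0.908 and 547 in KO ESCs and 30.0, 24.4 and 945 in WT ESCs. Over all ESC libraries the KO against WT adjusted p was 0.342 for Krt42 and 0.676 for Krt17 (limma), and edgeR and DESeq2 called neither. Without both replicate C libraries, Krt42 and Krt17 were lower in KO than in WT ESCs (adjusted p = 5.89e-07 and 7.38e-06, limma), and with the replicate letter as a block the adjusted p was 0.102 and 0.0312. These genes did not share the direction of Krt8 and Krt18 in ESC replicates A and B.

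**Figure D4:**
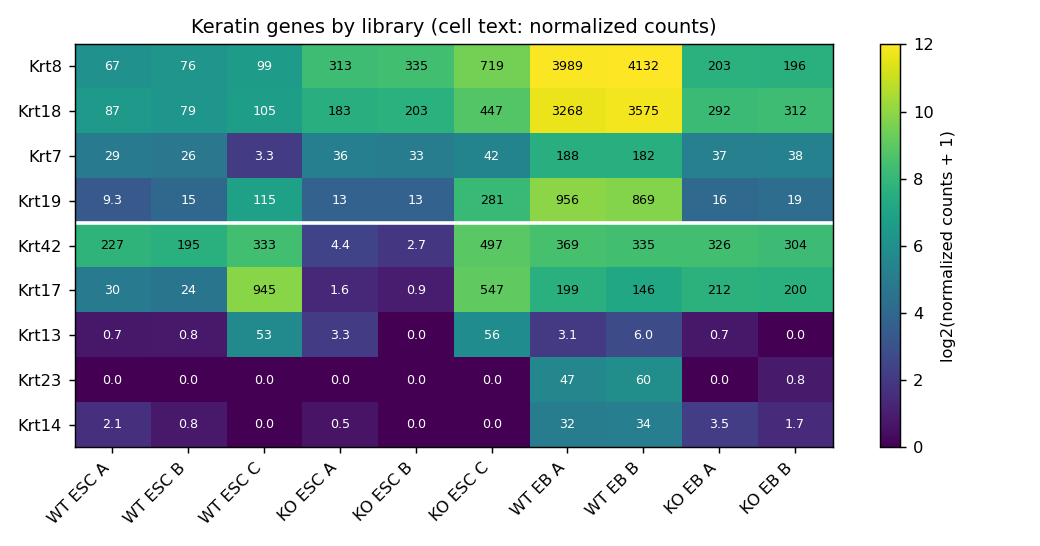
Normalized counts of the 4 simple epithelial keratins (above the white line) and of the 5 other keratin genes with the highest value in any library, coloured by log2 of the value plus 1. WT EBs are the highest columns for the upper 4 genes, while Krt42 and Krt17 are near 0 in KO ESC replicates A and B.

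Companion genes were tested across all 15781 genes. In KO against WT ESCs 1.31% of all tested genes were called higher and 1.07% lower. In KO against WT EBs these shares were 0.469% and 1.37%. In EBs against ESCs they were 2.01% and 0.475% in WT and 0.45% and 0.355% in KO. Over the other keratins and the 4 lists that follow, 1, 4, 6 and 2 genes were called in these comparisons, 20, 22, 28 and 22 with the replicate letter as a block, and 44, 50, 50 and 48 without both replicate C libraries. The shares over all genes come from the limma fit of all libraries without a block. None is given for the other settings, here or below, so counts under those settings are not read as results about these lists. Without any single EB library, 0 companion genes were called in KO against WT EBs, and without the WT or KO ESC replicate C library 12 or 13 were.

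Among 12 other intermediate filament genes tested, Lmna fell in KO EBs and Lmnb2 fell in KO ESCs. Lmna, which encodes lamins A and C of the nuclear envelope, had 417 ± 38.0 normalized counts in KO EBs and 2005 ± 188 in WT EBs (SD, n = 2), a log2 difference of -2.26 (adjusted p = 0.00506, limma). It rose in WT EBs over WT ESCs by 1.95 (adjusted p = 0.00406, limma). Both Lmna calls were lost without either WT EB library, which leaves a single library in that group. The call in KO against WT EBs was also lost without either KO EB library. Over all alternatives the log2 differences ran from -2.36 to -2.17 and from 1.86 to 2.05. Lmnb2 had a log2 difference of -0.76 in KO ESCs (adjusted p = 0.0321, limma), and without any single library other than the replicate C ones the adjusted p was 0.104 to 0.153. Lmnb1, the most abundant not called in KO against WT EBs, was at -0.40 (SE 0.28, adjusted p = 0.676, limma), and with the block the adjusted p was 0.0349. The median log2 difference of the list in KO against WT EBs was -0.82, beside -0.02 over all genes.

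Desmosomes anchor keratin filaments to the cell membrane, and 2 of 14 tested genes of desmosomes and keratin linkers fell in KO EBs. Dsp, or desmoplakin, which binds the filaments, had 80.4 ± 8.80 normalized counts in KO EBs and 524 ± 50.5 in WT EBs (SD, n = 2), a log2 difference of -2.69 (adjusted p = 0.0424, limma). This call was lost with TMM scaling (adjusted p = 0.0565, limma) and without any single ESC library of replicate A or B (0.0688 to 0.0845). Jup, or plakoglobin, was lower by a log2 difference of -1.73 (adjusted p = 0.0116, limma), and it fell in KO EBs below KO ESCs too, at -1.38 (adjusted p = 0.0323, limma), a call lost without any single library other than the replicate C ones (0.0849 to 0.435). Dst, a large linker and the most abundant not called, was at 1.37 (SE 1.46, adjusted p = 0.887, limma). It had 11680 ± 783 normalized counts in KO EBs and 4529 ± 273 in WT EBs (SD, n = 2), without overlap. The SE also draws on ESCs, where Dst had 1143 in WT and 1194 in KO replicate C. ESC replicates A and B had 6349 to 22984. Without both replicate C libraries the adjusted p was 5.96e-06 (limma), and with the block it was 0.0812. The Dst difference in EBs is opposite in sign to those of the keratins described. No gene of this list was called in KO against WT ESCs at an adjusted p under 0.05 with limma, against 1 at an unadjusted p under 0.05, 0 by edgeR, 1 by DESeq2 and 3 with the block, and its median there was 0.20. In KO against WT EBs 5 genes were lower with the block, and the median was -0.39.

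No gene of the 21 in epithelial junctions and polarity was called by limma in KO against WT in ESCs or EBs, while with the block 5 were called in each. At an unadjusted p under 0.05 there were 2 in ESCs and 4 in EBs, and edgeR called 0 and DESeq2 2 in each. Their median log2 difference was 0.21 in ESCs and -0.25 in EBs. F11r, a tight junction protein, fell in KO EBs below KO ESCs, by a log2 difference of -1.10 (adjusted p = 0.0328, limma), a call lost in the same way (0.0851 to 0.435). Cdh1, or E-cadherin, the most abundant not called, was 2384 ± 7.44 in KO EBs and 1290 ± 22.4 in WT EBs (SD, n = 2), a log2 difference of 0.89 (SE 0.33, adjusted p = 0.274, limma). This value is opposite in sign to those of the 4 keratins.

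Among 22 tested regulators of keratin genes, 4 rose in WT EBs over WT ESCs and 0 were called by limma in the other comparisons. Between KO and WT EBs 7 had an unadjusted p under 0.05, and edgeR called 1 and DESeq2 5. Between KO and WT ESCs these counts were 5, 0 and 1, and in EBs against ESCs of KO they were 7, 0 and 4. The 4 that rose were Ets1, Jun, Fosl2 and Junb, the last of which lies outside the naming rule and was named to complete the count. Ets1 rose by 4.05, Jun by 2.91 and Fosl2 by 2.77 on the log2 scale (adjusted p = 0.00988, 0.0029 and 0.0169, limma), and each call was lost without either WT EB library (0.079 to 0.232). The Fosl2 call was also lost without WT ESC replicate B (adjusted p = 0.0661, limma). In KO against WT EBs these were at -2.49, -1.42 and -1.94 (adjusted p = 0.0765, 0.0593 and 0.0836, limma). Klf4, the most abundant not called there, was at 0.72 (SE 0.51). With the block, 8 regulators were higher and 1 lower in WT EBs than in WT ESCs, and 1 was higher and 5 lower in KO than in WT EBs. Between KO and WT ESCs the block gave 3 higher and 3 lower, and in EBs against ESCs of KO 3 higher and 4 lower.

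Genes near the keratins differed in their behaviour. Within 100 kb of Krt8 or Krt18, other than each other, Eif4b, Tns2 and Spryd3 were tested. In KO against WT EBs, Eif4b was at -0.03 (SE 0.16) and Tns2 at 0.31 (SE 0.39) on the log2 scale, and Spryd3 fell by 1.11 (adjusted p = 0.0306, limma), a call lost without any single library other than the replicate C ones (0.0653 to 0.31). Krt13 was the tested neighbour of Krt19 and was not called, and no neighbour of Krt7 was tested. Krt13 had 52.7 and 55.5 normalized counts in ESC replicate C of WT and KO and at most 6.03 in the other libraries. Over 1344 tested genes of chromosome 11, where Krt19 lies, the median log2 difference of KO minus WT was -0.23 in ESCs and -0.44 in EBs, beside -0.02 over all genes in each. On chromosome 15 it was 0.00 and -0.03 over 582 genes. The part of the chromosome 11 shift in the Krt19, Krt23, Jup, Krt42 and Krt17 values was not tested.

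Marker genes of visceral and parietal endoderm moved with these keratins in EBs. The summed level of 20 markers of visceral and parietal endoderm was 195038 to 197370 in WT EBs and 6704 to 6724 in KO EBs. It was 9671 to 16035 in WT ESCs and 9762 to 13780 in KO ESCs. Of the 20, 16 rose in WT EBs over WT ESCs and 14 fell in KO against WT EBs, beside 2.01% and 1.37% of all tested genes. Afp had no read in KO EBs. The list was chosen with earlier results of these data known, so its counts are a description. The part of endoderm cells in the keratin values of EBs was not tested. In ESCs, where Krt8 and Krt18 were higher in KO, the summed endoderm markers overlapped between the genotypes and 0 of the 20 were called by limma. There 5 had an unadjusted p under 0.05, edgeR called 0, DESeq2 called 4, and 5 were higher with the block.

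The summed level of 14 trophectoderm markers was 791 to 1598 in WT ESCs, 1340 to 1744 in KO ESCs, 1171 to 1253 in WT EBs and 823 to 901 in KO EBs. Of the 9 tested, 0 were called in any comparison by limma without the block or by edgeR, 0 to 1 by DESeq2 and 1 to 3 at an unadjusted p under 0.05. With the block 1 was higher in KO than in WT ESCs, 1 lower in KO than in WT EBs, 1 higher in WT EBs than in WT ESCs and 2 lower in KO EBs than in KO ESCs. Without both replicate C libraries, 1 was higher and 4 were lower in KO than in WT EBs. Tpbpa had no read in any library, and Cdx2, Gata3, Tfap2c and Tead4 stand in the regulator list too. Summed surface ectoderm markers, a list that includes some of the other keratins, were highest in ESC replicate C, at 1967 in WT and 3405 in KO, and stood at 454 to 1081 elsewhere. Mesothelium markers stood at 747 in KO ESC replicate C and at 39.1 to 242 elsewhere. Fibroblast markers, by contrast, were lowest in ESC replicate C, at 4957 in WT and 2555 in KO, and stood at 17288 to 22064 in ESC replicates A and B and 10456 to 10941 in EBs. The part of these cell types in the replicate C values of Krt8, Krt18 and Krt19 was not tested.

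**Figure D5:**
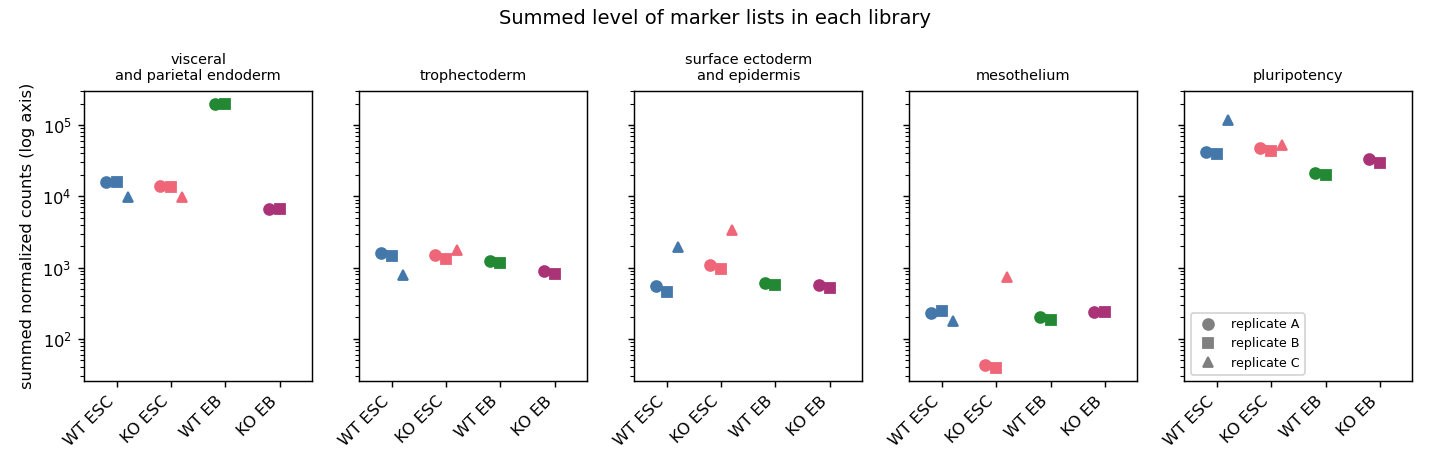
Summed normalized counts (log axis) of 5 marker lists in each library by group, with symbols for replicate letters. The endoderm sum separates WT EBs, at 195038 to 197370, from every other group, and the trophectoderm sum does not.

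The genes most like each keratin were found by Pearson's r of log2 values over the 10 libraries among 10800 protein-coding genes with a mean of 50 or more. This likeness describes libraries that share their stage, genotype and replicate letter, and it carries no test. The gene most like Krt8 was Krt18 (r = 0.971), and others among the closest were the endoderm transcription factor Foxa2 (0.962), Creb3 (0.962) and Cmtm4 (0.958). Foxa2 had 0.715 ± 1.24 normalized counts in WT ESCs, 24.4 ± 29.4 in KO ESCs (SD, n = 3), 349 ± 85.9 in EBs of WT and 6.15 ± 5.71 in those of KO (SD, n = 2). Its group means thus had the order of those of Krt8.

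The genes most like Krt18 were the parathyroid hormone receptor gene Pth1r (r = 0.974), Teddm2 (0.973), Krt8 (0.971), Tmed3 (0.966) and St3gal1 (0.961). Those most like Krt7 were Serpinh1, a collagen chaperone (0.983), Fhl2 (0.974), Txndc11 (0.973), Sfi1 (0.961) and Fhdc1 (0.956). Krt19 was closest to the desmosomal plakophilin Pkp2 (0.995), and others among the closest were Clu (0.986), Surf4 (0.979) and Tax1bp3 (0.977). Pkp2 had 146 ± 53.1 normalized counts in WT ESCs, 167 ± 76.5 in KO ESCs (SD, n = 3), 345 ± 8.85 in EBs of WT and 133 ± 10.0 in those of KO (SD, n = 2).

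Among the 4 keratins themselves, Krt7 and Krt19 had r = 0.492 over the 10 libraries and 0.990 over the 8 without replicate C. Krt8 had r = 0.819 with Krt7 and 0.829 with Krt19, and 0.961 and 0.936 without replicate C. The likeness of Krt7 and Krt19 to each other thus differs with replicate C, in which Krt19 was high in both genotypes and Krt7 was at 1 read in WT.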

How the data were processed

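Mouse RNA-seq of 4 groups and 10 libraries was analysed. The 4 keratins and all gene lists were chosen with earlier results of these data known. The deposited signal holds read counts of genes, scaled by the authors with a DESeq size factor for each library. Per the submitters' processing notes, HTSeq 0.6.0 and DESeq were used with TopHat2 2.0.10, Bowtie, CASAVA 1.8.2 and the build mm10, and the annotation is not given in the sources used here. Dividing each column by the value of 1 read gave whole numbers, within 0.01, in 100% of cases, which recovered the whole reads. Of 39179 identifiers, 37607 had a GENCODE vM21 symbol, and 5 summary lines were left out. Reads in no gene were 34.0% to 38.8% of records.

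Values plus a pseudocount of 1 on the log2 scale were fitted with limma 3.58.1 for 15781 genes with a mean of 10 or more. The fit had 4 group means, trended and robust variances, and no term for the replicate letter. P values are two-sided, adjusted by Benjamini-Hochberg over all tested genes, with a threshold of 0.05. They measure the spread between libraries as labelled, and the EB groups of 2 borrow spread from all groups. Intervals and floors cover counting error only. The fit was tested on simulated data. Alternatives were edgeR 4.0.16 and DESeq2 1.42.0 on recovered reads, TMM scaling, other pseudocounts and filters, a replicate block and left-out libraries.

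WT and KO use the same replicate letters. ESC libraries of the same letter deviated from their group means together, with r of 0.845, 0.828 and 0.858 in A, B and C. Between different letters r was 0.809 and 0.812 for A and B, close to the matched values, and -0.836 to -0.846 with C. Replicate C thus stood apart in both genotypes, and these values cannot decide whether A and B pair by letter. The letter was used as a block only among the alternatives. In EBs r was 0.369, and 2 pairs are too few to decide.

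All 4 keratins were named. Per companion list and comparison, up to 3 called genes in each direction with the largest log2 difference and a mean of at least 50 in the higher group were named, with the most abundant gene not called in KO against WT EBs. Tested protein-coding genes within 100 kb of a keratin, the 5 most alike genes per keratin and Mettl3 were added, of which some alike genes are not reported here. Promoter sequences come from RefSeq, where 3 of the 4 keratins matched.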

Additional observations from a re-analysis of the deposited data

Results flagged for a closer look

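For 3 keratins the KO libraries lay wholly above WT in ESCs and wholly below WT in EBs. Over all tested genes the first held for 9.23% and the second for 38.9%, and the share with both is not given. The KO effect in EBs minus the KO effect in ESCs was -6.74 for Krt8, -4.99 for Krt18 and -3.58 for Krt7 on the log2 scale. Without both replicate C libraries the Krt7 value was -2.57, and its KO minus WT difference in ESCs was 0.30. These differences were not tested, since these genes were chosen with their values known.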

How the results depend on the processing

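The members' log2 differences gave 348 values under the alternatives, of which 336 stayed within 1 SD of the reported value, and 12 moved by more. Many of the 336 could not move. The block, the filters, the variance setting and leaving out a library of a group not compared all keep these differences the same. The count is therefore no measure of how stable the differences are. The sign changed only for differences smaller than their own SE. Krt19 in KO against WT ESCs, for example, ran from -0.98 without KO ESC replicate C to 1.53 without WT ESC replicate C. Without both replicate C libraries, Krt7 in KO against WT ESCs was 0.30. Alternatives chosen after seeing the data moved the rest. KO minus WT in ESCs was 1.06 for Krt18 in letter A alone and 2.85, 2.07 and 3.31 for Krt8, Krt18 and Krt7 in letter C alone, and for Krt7 it was 0.28 and 0.32 in A and B. Against ESC replicate C alone, EBs minus ESCs was -1.85 for Krt8, -0.57 for Krt18 and -3.93 for Krt19 in KO, and 5.43 for Krt7 and 2.97 for Krt19 in WT.

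Companion genes called in KO against WT ESCs, in KO against WT EBs, and between EBs and ESCs of WT and of KO numbered 1, 4, 6 and 2. With the replicate letter as a block they were 20, 22, 28 and 22, and without both replicate C libraries 44, 50, 50 and 48. No share over all genes is given beside the counts under the alternatives. DESeq2 called 5, 14, 16 and 13, and no filter on low values gave 0, 17, 18 and 1. In the ESC comparison a mean of 50 or more gave 2 and neither trend nor robust variances gave 0, and a pseudocount of 8 gave 8 in KO against WT EBs. Leaving out each replicate in turn gave 0 to 12, 0 to 13, 0 to 14 and 0 to 12, with the highest counts without an ESC replicate C library. The named companion genes and Spryd3 gave 183 values with the same call, 75 in which the call was lost and 0 reversed. The cause was not tested. Depth limits Krt7 in ESC replicate C, where WT had 1 read. With TMM scaling the median of all genes in EBs against ESCs in KO was 0.10.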
